A study of Arabidopsis thaliana with 15 samples.

Results

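The genes described here are acyltransferases of the BAHD family in Arabidopsis thaliana roots, among them AT5G47980 of the thalianol gene cluster. They were taken from a list of 10 loci, and a locus entered when the array table held a row for it annotated to exactly 1 gene. Of the 10 loci, 9 met this rule, out of 16550 genes with such a row, and each of the 9 had a single row. The remaining locus, AT2G39980, had only rows annotated to 2 genes and no value is given for it. The list was chosen by earlier results of these arrays, namely the log2 differences of the parabola groups from level flight. Values against level flight are therefore given as a description with standard errors and without p-values for these 9 genes.

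Whole-root RNA was measured on 15 Affymetrix AraGene 1.0 ST arrays. All seedlings were 10 days old, of the cultivar Wassilewskija (WS), grown in continuous light, and carried the transgene pCaMV35S:14-3-3κ:GFP, in which a constitutive viral promoter drives a 14-3-3 protein fused to GFP. Every group carries this transgene, and a line without it was not analysed here. Seedlings rode a C-9 aircraft inside Kennedy Space Center Fixation Tubes and were fixed with RNAlater in level flight (n = 4 arrays), or after parabola 1 (n = 4), parabola 3 (n = 4) or parabola 10 (n = 3). The replicates of a condition were pools of roots from a single tube. Condition, tube and time on board therefore cannot be told apart, and each p-value measures the spread among pools of 1 tube. A parabola is a manoeuvre in which reduced gravity is flanked by raised gravity, and the study asked how the root transcriptome changes after such manoeuvres.

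BAHD enzymes move an acyl group from a coenzyme A thioester to an alcohol or amine, and they modify anthocyanins, wax and suberin precursors, lignin precursors, hormones and triterpenes. In Arabidopsis roots, thalianol is made from oxidosqualene by a synthase whose gene lies in a cluster with those of cytochrome P450 enzymes and BAHD acyltransferases. The acyltransferase step adds an acetyl group to oxidised thalianol derivatives, which are specialised metabolites known to shape the root microbial community. For most of the other loci described here no substrate is named, since the annotation used gives none.

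Of the 9 genes, AT5G47980 was higher in each parabola group than in level flight, and AT5G07860 and AT5G07870 were lower in each. AT3G26040 was lower in each as well, by smaller amounts. The arrays of AT5G47950, AT1G24430 and AT4G15390 overlapped with level flight after parabolas 1 and 3. AT5G07850 and AT5G23970 were near the lower end of the signal range on all arrays. In whole roots, fewer cells of a type and less RNA per cell cannot be told apart. Values are deposited log2 values, so a difference of 1 is a 2-fold difference in signal, and a level of a gene is not compared with that of another gene.

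**Figure D1:**
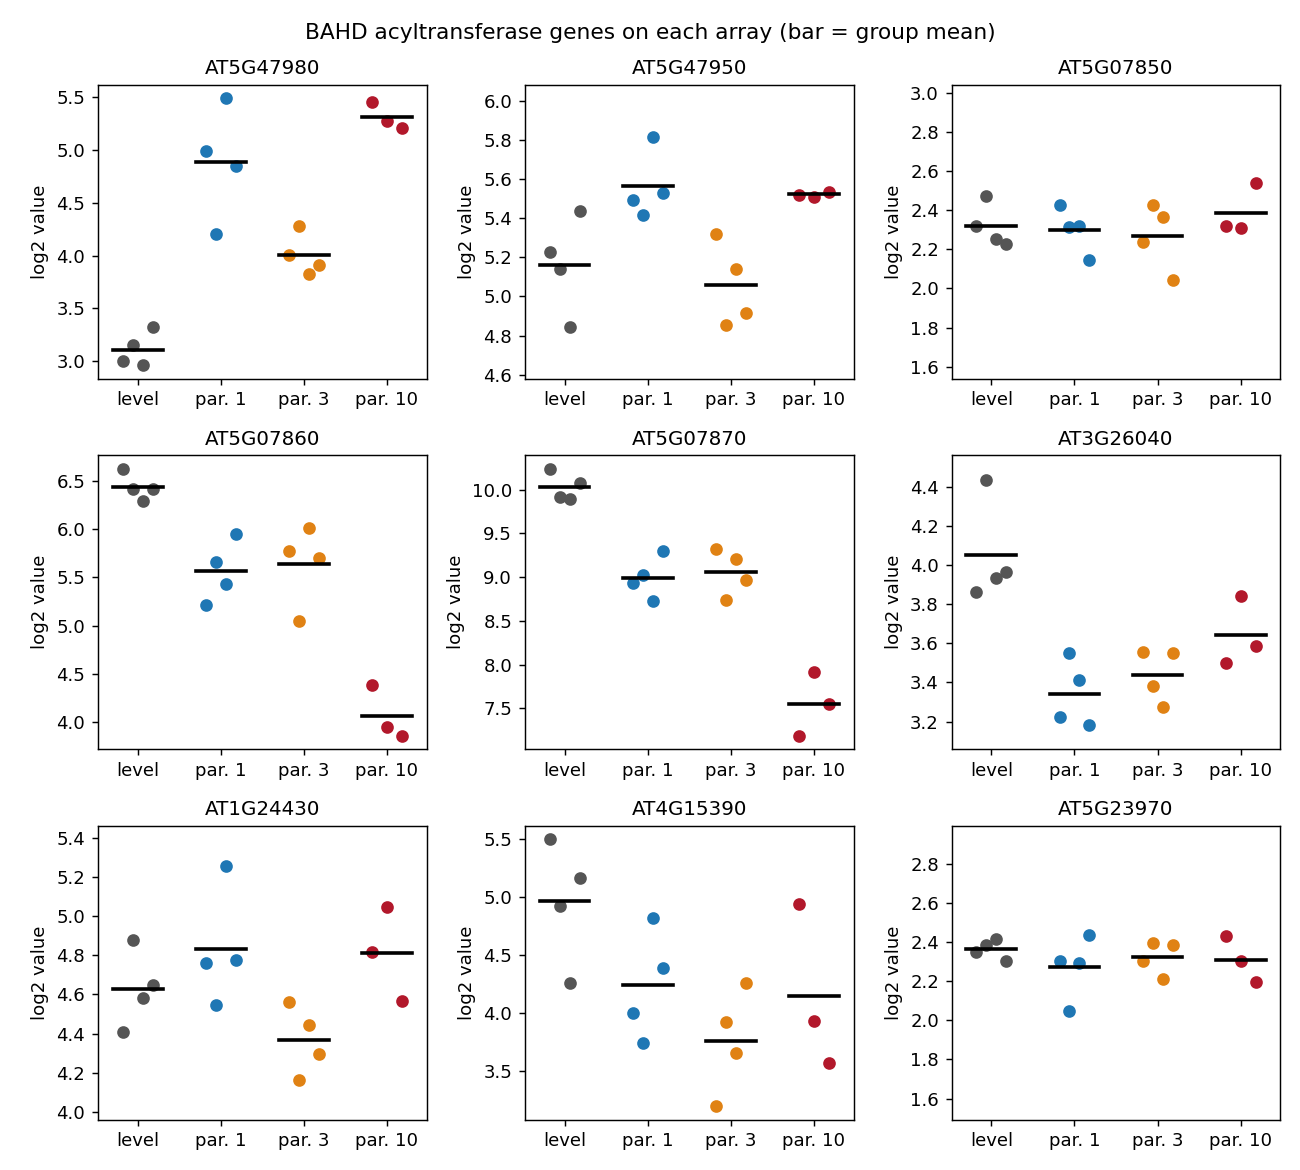
Log2 value of each of the 9 BAHD genes on each array (points) by group (x axis: level flight, parabola 1, 3 and 10), with the group mean as a bar; vertical axes differ between panels and do not start at 0. AT5G47980 has all 4 level-flight arrays under the other 11, and AT5G07860 and AT5G07870 have all 3 parabola 10 arrays under the other 12.

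AT5G47980, which lies in the thalianol cluster, measured 3.00, 3.15, 2.96 and 3.32 on the level-flight arrays (replicates 1 to 4). After parabola 1 its values were 4.99, 4.20, 5.49 and 4.85, and after parabola 3 they were 4.01, 4.28, 3.83 and 3.91. After parabola 10 they were 5.45, 5.28 and 5.21. All 11 parabola arrays lay above all 4 level arrays. The 4 level values lay under the array median of the tested genes, 3.65 to 3.70, and above the lower quartile. The parabola 3 arrays lay under the parabola 10 arrays without overlap, while parabola 1 replicate 2, at 4.20, fell inside the range of parabola 3. Group means were 3.11 ± 0.17 (SD, n = 4) in level flight, 4.88 ± 0.53 (n = 4) after parabola 1, 4.01 ± 0.19 (n = 4) after parabola 3 and 5.31 ± 0.12 (n = 3) after parabola 10. In order of level the groups ran level flight, parabola 3, parabola 1 and parabola 10, and neither parabola 3 with parabola 1 nor parabola 1 with parabola 10 was free of overlap.

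Against level flight, AT5G47980 was higher by 1.77 ± 0.19 (log2, SE) after parabola 1, which is 3.42-fold. The difference was 0.90 ± 0.19 after parabola 3, or 1.86-fold, and 2.20 ± 0.20 after parabola 10, or 4.61-fold. Among all 16550 genes ordered by log2 difference from level flight, AT5G47980 stood 6th from the top after parabola 1, 111th after parabola 3 and 4th after parabola 10. These positions describe the values on which the gene was listed.

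Between parabola groups, AT5G47980 fell by 0.88 ± 0.19 from parabola 1 to parabola 3 (1.84-fold, limma adjusted p = 0.025). It rose by 1.31 ± 0.20 from parabola 3 to parabola 10 (2.47-fold, limma adjusted p = 0.00332). The difference of parabola 10 from parabola 1, 0.43 ± 0.20, did not pass the threshold of an adjusted p under 0.05 (limma, adjusted p = 0.286). The lower value at parabola 3 relative to parabola 1 lost its call in 7 of 25 alternative settings. Leaving out parabola 1 replicate 3 alone reduced it to −0.67 (adjusted p = 0.0633), and leaving out parabola 1 replicate 1 gave an adjusted p of 0.0766. Without parabola 3 replicate 3 the adjusted p was 0.0706, and without parabola 3 replicate 4 it was 0.0686. The difference between parabola 10 and parabola 3 passed in all 25, at 1.24 to 1.40. Contrasts between parabola groups reuse the arrays that are set against level flight, and the genes were listed with earlier results of these arrays known, so these p-values are no independent evidence.

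One array measure moved with parabola 1. It was taken from 7083 of the 20927 rows with no annotated gene, those numbered before the first row of the annotation. They are called the unnamed rows here. Their median was 2.56 to 2.68 on the parabola 1 arrays, above the 2.43 to 2.52 of level flight. It was 2.41 to 2.58 after parabola 3 and 2.39 to 2.48 after parabola 10. With this median added to the fit, the difference of AT5G47980 between parabola 3 and parabola 1 was −0.97, beside −0.88 without it, and no longer passed (limma adjusted p = 0.361). The differences of AT5G47980 from level flight kept their sign in all 25 alternatives, this fit among them. They were 1.57 to 2.00 after parabola 1, 0.81 to 0.97 after parabola 3 and 2.14 to 2.28 after parabola 10. The parabola 10 arrays lie in or below the level-flight range of this median, with 2.39 as their lowest value. All parabola 1 arrays lie above all level-flight and parabola 10 arrays in this median. The fit therefore cannot cleanly separate it from the parabola 1 group, and nothing is read from calls lost with it, here or below.

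AT5G47950, also a BAHD acyltransferase gene of the thalianol cluster, lies 3 places from AT5G47980 in the reference gene order. Its level-flight values were 5.23, 5.14, 4.84 and 5.44, and its values after parabola 1 were 5.49, 5.42, 5.82 and 5.53. After parabola 3 it measured 5.32, 4.85, 5.14 and 4.91, and after parabola 10 it measured 5.52, 5.51 and 5.54. The 3 parabola 10 arrays lay close together and above all 4 level arrays, and parabola 1 and parabola 3 did not overlap. The differences from level flight were 0.40 ± 0.13, −0.10 ± 0.13 and 0.36 ± 0.14 after parabolas 1, 3 and 10, so the largest was 1.32-fold. None of its contrasts between parabola groups passed. Parabola 3 against parabola 1 was −0.51 ± 0.13 (limma adjusted p = 0.0562), and parabola 10 against parabola 3 was 0.46 ± 0.14 (adjusted p = 0.13). The first of these passed in 4 of 25 alternative settings, and the second stayed uncalled in all 25.

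Of the 5 other thalianol pathway genes listed, which include the synthase and the P450 genes of the cluster, 1 had a one-gene row. This was AT1G66800, listed as a reductase gene of the pathway. Its values were 6.61, 6.56, 6.43 and 6.80 in level flight and 7.09, 7.00, 7.36 and 6.98 after parabola 1. They were 6.84, 6.44, 6.48 and 6.42 after parabola 3 and 7.00, 6.96 and 7.08 after parabola 10. Parabola 1 and parabola 10 arrays were all above the level arrays, and parabola 3 arrays overlapped with level flight. AT1G66800 rose after parabola 1 (0.51 ± 0.12, limma adjusted p = 0.00877) and after parabola 10 (0.41 ± 0.13, adjusted p = 0.033), and was at −0.06 ± 0.12 after parabola 3 (adjusted p = 0.814). It fell from parabola 1 to parabola 3 by 0.56 ± 0.12 (limma adjusted p = 0.0185), and parabola 10 against parabola 3 stood at 0.47 ± 0.13 (adjusted p = 0.0835). Of 25 alternatives, 9 ended its call after parabola 10 and 7 its call between parabola 3 and parabola 1. With the median of the unnamed rows in the fit, its difference after parabola 1 was 0.31 and did not pass (limma adjusted p = 0.461), and parabola 3 against parabola 1 was −0.37 (adjusted p = 0.726).

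**Figure D2:**
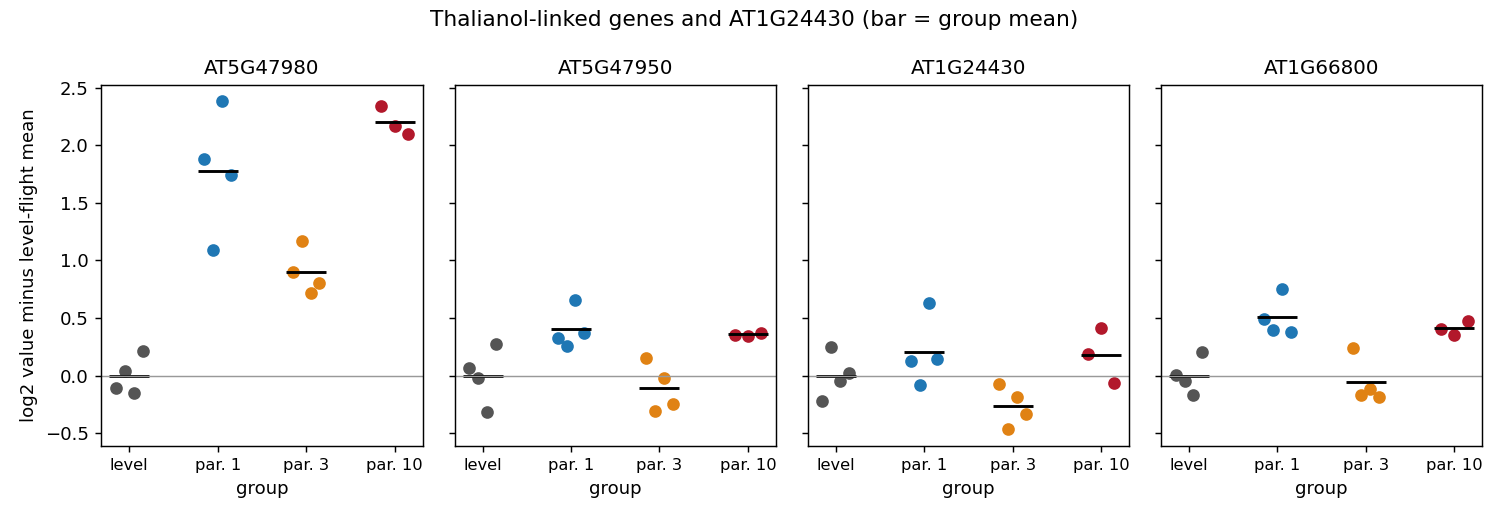
Log2 value minus the level-flight mean on each array (points) by group for AT5G47980, AT5G47950, AT1G24430 and AT1G66800 on a shared vertical axis, with group means as bars. The mean after parabola 3 is under those after parabola 1 and parabola 10 in all 4 genes, and the differences from level flight of AT5G47980, up to 2.20, exceed those of the other genes, up to 0.51.

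A group mean that was higher after parabola 1 than in level flight, lower after parabola 3 than after parabola 1 and higher after parabola 10 than after parabola 3 was found in AT5G47980, AT5G47950, AT1G24430 and AT1G66800. This order was looked for after the values had been seen. It held for 3102 of the 16550 genes, or 18.7%. As the order was drawn from these values, nothing is read from that share. Parabola 1 replicate 3 was the highest array of its group for all 4 of these genes. In level flight replicate 4 was highest and replicate 3 lowest for AT5G47980, AT5G47950 and AT1G66800. Whether these shared array positions play a part in the shared order was not tested.

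The genes with the profile closest to AT5G47980 over the 15 arrays were AT1G45015, AT5G26290, AT1G49200, AT3G01730 and AT3G26590. Closeness was the root mean square log2 difference between profiles, each centred on its own mean, and it was 0.326, 0.330, 0.418, 0.423 and 0.425 for these genes in that order. AT1G45015 differed from level flight by 1.33, 0.56 and 1.73 after parabolas 1, 3 and 10. AT5G26290 differed by 1.91, 1.14 and 1.82. AT3G26590, the fifth in the order, stood at 0.97, 0.71 and 1.30. In level flight and after parabolas 1, 3 and 10, AT1G49200 had means of 3.24, 4.83, 4.54 and 4.96. Those of AT3G01730 were 4.54, 5.54, 5.29 and 6.15. Differences like those of AT5G47980 follow from the choice by closeness on the same arrays, and nothing is read from them.

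AT5G07850, AT5G07860 and AT5G07870 are consecutive in the reference gene order of chromosome 5. AT5G07870 measured 10.24, 9.91, 9.90 and 10.07 in level flight. It measured 8.93, 9.02, 8.73 and 9.29 after parabola 1, 9.32, 8.74, 9.21 and 8.97 after parabola 3, and 7.19, 7.91 and 7.55 after parabola 10. The level arrays were all above the other 11 and the parabola 10 arrays all under the other 12, while parabola 1 and parabola 3 overlapped. Means were 10.03 ± 0.16 (SD, n = 4), 8.99 ± 0.24 (n = 4), 9.06 ± 0.26 (n = 4) and 7.55 ± 0.36 (n = 3) in flight order. The log2 differences from level flight were −1.04 ± 0.16 after parabola 1 (2.05-fold lower), −0.97 ± 0.16 after parabola 3 (1.96-fold lower) and −2.48 ± 0.17 after parabola 10 (5.57-fold lower).

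AT5G07860 measured 6.62, 6.41, 6.29 and 6.41 in level flight. After parabola 1 it measured 5.21, 5.66, 5.43 and 5.95, after parabola 3 it measured 5.78, 5.05, 6.01 and 5.70, and after parabola 10 it measured 4.39, 3.95 and 3.86. Its groups were ordered as those of AT5G07870, with the same overlap of parabolas 1 and 3. Means were 6.43 ± 0.14 (SD, n = 4), 5.56 ± 0.32 (n = 4), 5.63 ± 0.41 (n = 4) and 4.07 ± 0.28 (n = 3). The differences from level flight were −0.87 ± 0.19, −0.80 ± 0.19 and −2.37 ± 0.20 after parabolas 1, 3 and 10, or 1.83-, 1.74- and 5.15-fold lower. With the median of the unnamed rows in the fit, the parabola 1 difference was −0.52, beside −0.87 without it. For AT5G07870 that difference was −0.97 in this fit, beside −1.04 without the median. Ordered from the lowest log2 difference after parabola 10, AT5G07870 stood 21st and AT5G07860 24th of 16550 genes.

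From parabola 3 to parabola 10, AT5G07870 fell by 1.51 ± 0.17 (2.84-fold, limma adjusted p = 0.000346) and AT5G07860 by 1.57 ± 0.20 (2.96-fold, adjusted p = 0.000947). From parabola 1 to parabola 10 the falls were 1.44 ± 0.17 (2.71-fold, limma adjusted p = 0.000222) and 1.49 ± 0.20 (2.82-fold, adjusted p = 0.000564). Between parabola 1 and parabola 3 both genes differed by 0.07, with limma adjusted p-values of 0.893 and 0.904. The contrast between parabola 10 and parabola 3 passed in all 25 alternatives for both genes, at −1.69 to −1.33 for AT5G07870 and −1.76 to −1.44 for AT5G07860. Parabola 10 against parabola 1 lost its call with the median of the unnamed rows in the fit, at −1.54 (adjusted p = 0.161) for AT5G07870 and −1.96 (adjusted p = 0.11) for AT5G07860.

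Within the groups the 2 genes did not keep the same array order: parabola 10 replicate 1 was the highest of its group for AT5G07860, at 4.39, and the lowest for AT5G07870, at 7.19. Neighbouring genes of a family can be alike in sequence, and how far the probes tell these genes apart was not tested.

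The third of the consecutive genes, AT5G07850, measured between 2.04 and 2.54 on the 15 arrays. That was under the array median of the tested genes, 3.65 to 3.70, on 15 of 15 arrays and under the lower quartile, 2.29 to 2.43, on 9 of 15. Its differences from level flight were −0.02, −0.05 and 0.07 after parabolas 1, 3 and 10, with standard errors of 0.10 to 0.11. At such values a difference in transcript level may not be detectable. AT5G07890, 3 places from AT5G07860 on the other side, is not one of the 9 genes. It measured 4.13, 4.48, 4.59 and 4.65 in level flight and between 3.90 and 4.39 on the 11 parabola arrays. Its differences of −0.28, −0.30 and −0.33 did not pass (limma adjusted p = 0.251, 0.16 and 0.145).

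**Figure D3:**
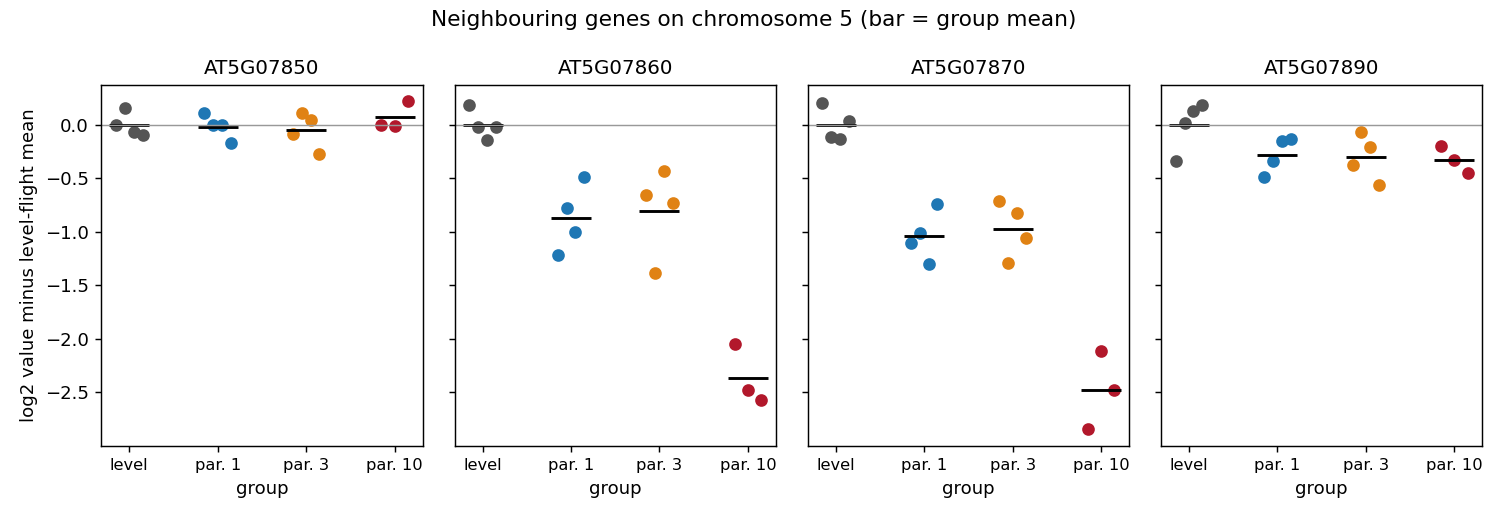
Log2 value minus the level-flight mean on each array (points) by group for AT5G07850, AT5G07860, AT5G07870 and AT5G07890 on a shared vertical axis, with group means as bars. AT5G07860 and AT5G07870 have means of −2.37 and −2.48 after parabola 10, whereas the means of AT5G07850 and AT5G07890 lie between −0.33 and 0.07.

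AT3G26040 was under the array median of the tested genes on 10 of 15 arrays. It measured 3.86, 4.44, 3.93 and 3.96 in level flight. Its values were 3.22, 3.55, 3.41 and 3.18 after parabola 1, 3.56, 3.38, 3.27 and 3.55 after parabola 3, and 3.50, 3.84 and 3.59 after parabola 10. All 11 parabola arrays lay below all 4 level arrays, although parabola 10 replicate 2, at 3.84, was close to the lowest of them at 3.86. The log2 differences were −0.71 ± 0.13 (1.63-fold lower), −0.61 ± 0.13 (1.52-fold lower) and −0.41 ± 0.14 (1.32-fold lower) after parabolas 1, 3 and 10. The 3 parabola groups overlapped with each other, and no contrast between them passed (limma adjusted p = 0.282 to 0.791).

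AT4G15390 has a locus number that falls among those of the arabidiol and baruol gene region, another stretch with triterpene synthase genes. It measured 5.50, 4.92, 4.26 and 5.16 in level flight and 4.00, 3.74, 4.82 and 4.39 after parabola 1. After parabola 3 it measured 3.20, 3.92, 3.66 and 4.26, and after parabola 10 it measured 4.94, 3.93 and 3.57. Every pair of groups overlapped, though level flight and parabola 3 met only at a shared value of 4.26. The SD within groups, 0.45 to 0.71, exceeded that of AT5G47980 in level flight and after parabolas 3 and 10. Its differences from level flight were −0.72 ± 0.31, −1.20 ± 0.31 and −0.81 ± 0.33 after parabolas 1, 3 and 10. Of these, only the parabola 3 difference, 2.30-fold lower, passed the threshold. As the list was drawn from such differences, nothing is read from that call. With each array left out in turn, the parabola 3 difference was −1.43 to −1.01, and without level-flight replicate 1 it was not called. With the median of the unnamed rows in the fit the parabola 1 difference turned to 0.18.

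AT1G24430 measured 4.41, 4.88, 4.58 and 4.65 in level flight, 4.76, 4.54, 5.26 and 4.78 after parabola 1, 4.56, 4.17, 4.44 and 4.29 after parabola 3, and 4.82, 5.05 and 4.57 after parabola 10. The level arrays overlapped with each parabola group, and parabola 10 lay just above parabola 3, with 4.57 against 4.56 as the nearest values. Differences from level flight were 0.21 ± 0.15, −0.26 ± 0.15 and 0.18 ± 0.16. Parabola 3 against parabola 1 was −0.47 ± 0.15 (limma adjusted p = 0.138) and parabola 10 against parabola 3 was 0.44 ± 0.16 (adjusted p = 0.22). AT5G23970 lay between 2.05 and 2.44 on the 15 arrays, under the array median on all 15 and under the lower quartile on 9. Its differences from level flight were −0.09, −0.04 and −0.05, and the remark on detection made for AT5G07850 holds for it too.

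**Figure D4:**
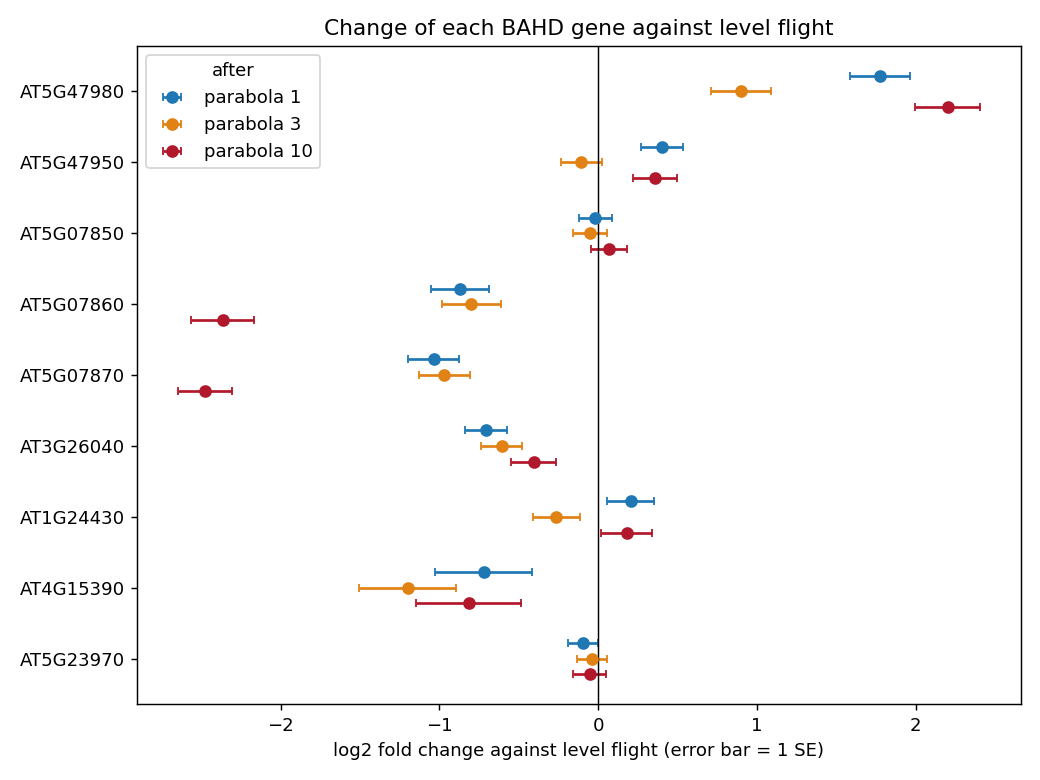
Log2 fold change of each of the 9 BAHD genes against level flight (x axis; points, with a bar of 1 SE on each side) after parabola 1, parabola 3 and parabola 10. AT5G47980 lies to the right of 0 at 0.90 to 2.20, AT5G07860 and AT5G07870 lie to the left at −0.80 to −2.48, and AT5G07850 and AT5G23970 lie between −0.09 and 0.07.

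Counted over the 9 genes, 1 was higher and 3 were lower past the threshold after parabola 1, when 8.33% of all tested genes passed (3.47% higher, 4.85% lower). After parabola 3 the counts were 1 higher and 4 lower, beside 11.2% of all genes (4.48% higher, 6.69% lower). After parabola 10 they were 1 higher and 2 lower, beside 14.6% (7.53% higher, 7.11% lower). With arrays centred on 8 reference genes the split over all genes after parabola 10 moved from 1247 higher and 1176 lower to 862 higher and 1233 lower. Groups did not overlap with level flight for 4, 4 and 5 of the 9 genes, beside 14.0%, 15.8% and 24.2% of all genes. These counts come from the contrasts known when the list was made, and nothing is read from them. The median log2 difference of the 9 genes was −0.09, −0.26 and −0.05 after parabolas 1, 3 and 10, beside 0.01, 0.03 and 0.04 over all tested genes.

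Between parabola groups fewer genes passed. From parabola 1 to parabola 3, AT5G47980 was the only 1 of the 9 that passed, beside 1.72% of all genes (0.761% higher, 0.961% lower), and it was lower. From parabola 3 to parabola 10, AT5G47980 rose and AT5G07860 and AT5G07870 fell, beside 1.17% (0.592% higher, 0.574% lower). From parabola 1 to parabola 10 only AT5G07860 and AT5G07870 passed, both lower, beside 3.56% (1.73% higher, 1.82% lower). Groups did not overlap for 1, 5 and 2 of the 9 genes in these 3 contrasts, beside 7.54%, 9.67% and 14.7% of all genes. The 5 genes whose parabola 3 and parabola 10 arrays did not overlap were AT5G47980, AT5G47950 and AT1G24430, higher after parabola 10, and AT5G07860 and AT5G07870, lower.

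Beside these 9 genes, 40 of 50 other listed BAHD loci were measured. After parabola 1, 2 of the 40 rose and 5 fell (limma, adjusted p under 0.05), when 8.33% of all tested genes passed. After parabola 3, 2 rose and 4 fell, beside 11.2%, and after parabola 10, 6 rose and 3 fell, beside 14.6%. The median log2 differences of the 40 were −0.02, 0.08 and 0.09. In an F-test that took the 3 differences from level flight jointly, 12 of the 40 passed, beside 15.7% of all genes. Between parabola groups, 2 fell from parabola 1 to parabola 3, when 1.72% of all tested genes passed. From parabola 3 to parabola 10, 2 rose, beside 1.17%, and from parabola 1 to parabola 10, 3 rose, beside 3.56%. BAT1 and AT5G57840, described next, are among these calls. The call of BAT1 between parabolas 3 and 1 was lost in 19 of 25 alternatives and that between parabolas 10 and 3 in 10, and the call of AT5G57840 between parabolas 10 and 1 was lost in 8.

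The next 4 genes, BAT1, AT5G57840, AT5G07080 and AT1G78990, were named for having the smallest F-test p of the 40. That test uses the differences from level flight, so small p-values there follow from the choice and are no further evidence. BAT1 (AT4G31910), which encodes an acyltransferase acting on brassinosteroid hormones, had the smallest F-test p of the 40. It measured 6.75, 6.85, 6.96 and 6.37 in level flight, 5.59, 5.58, 5.99 and 5.89 after parabola 1, 5.24, 5.23, 5.34 and 5.13 after parabola 3, and 5.88, 5.72 and 6.07 after parabola 10. All parabola arrays were below all level arrays, and parabola 3 was below both other parabola groups without overlap. BAT1 fell against level flight by 0.97 ± 0.13 after parabola 1, by 1.50 ± 0.13 after parabola 3 (2.83-fold) and by 0.84 ± 0.14 after parabola 10, with limma adjusted p-values of 7.42e-05, 5.35e-07 and 0.000427.

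AT5G57840 measured 5.66, 5.75, 5.89 and 5.70 in level flight, 6.45, 6.35, 6.40 and 6.52 after parabola 1, 6.34, 6.28, 6.29 and 6.14 after parabola 3, and 7.25, 6.86 and 6.68 after parabola 10. Its parabola arrays were all above the level arrays, with parabola 10 above all others. It rose by 0.68 ± 0.11, 0.52 ± 0.11 and 1.18 ± 0.12 after parabolas 1, 3 and 10 (limma adjusted p = 0.000462, 0.00441 and 1.95e-06). It also rose from parabola 3 to parabola 10 by 0.67 (adjusted p = 0.00822).

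AT5G07080 rose against level flight after parabola 10 by 0.81 ± 0.14 (1.76-fold, limma adjusted p = 0.000551), from a mean of 4.95 ± 0.11 (SD, n = 4) to 5.77 ± 0.30 (n = 3). After parabolas 1 and 3 it stood at 0.04 (adjusted p = 0.92) and 0.35 (adjusted p = 0.0981). AT1G78990 measured 6.94, 6.90, 7.15 and 6.26 in level flight and between 5.10 and 6.20 on the 11 parabola arrays, all of them under the lowest level array. It fell by 0.96 ± 0.21, 1.18 ± 0.21 and 1.05 ± 0.23 after parabolas 1, 3 and 10 (limma adjusted p = 0.0065, 0.00106 and 0.00392). With the median of the unnamed rows in the fit, the difference after parabola 1 was −0.47 and did not pass (limma adjusted p = 0.528).

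**Figure D5:**
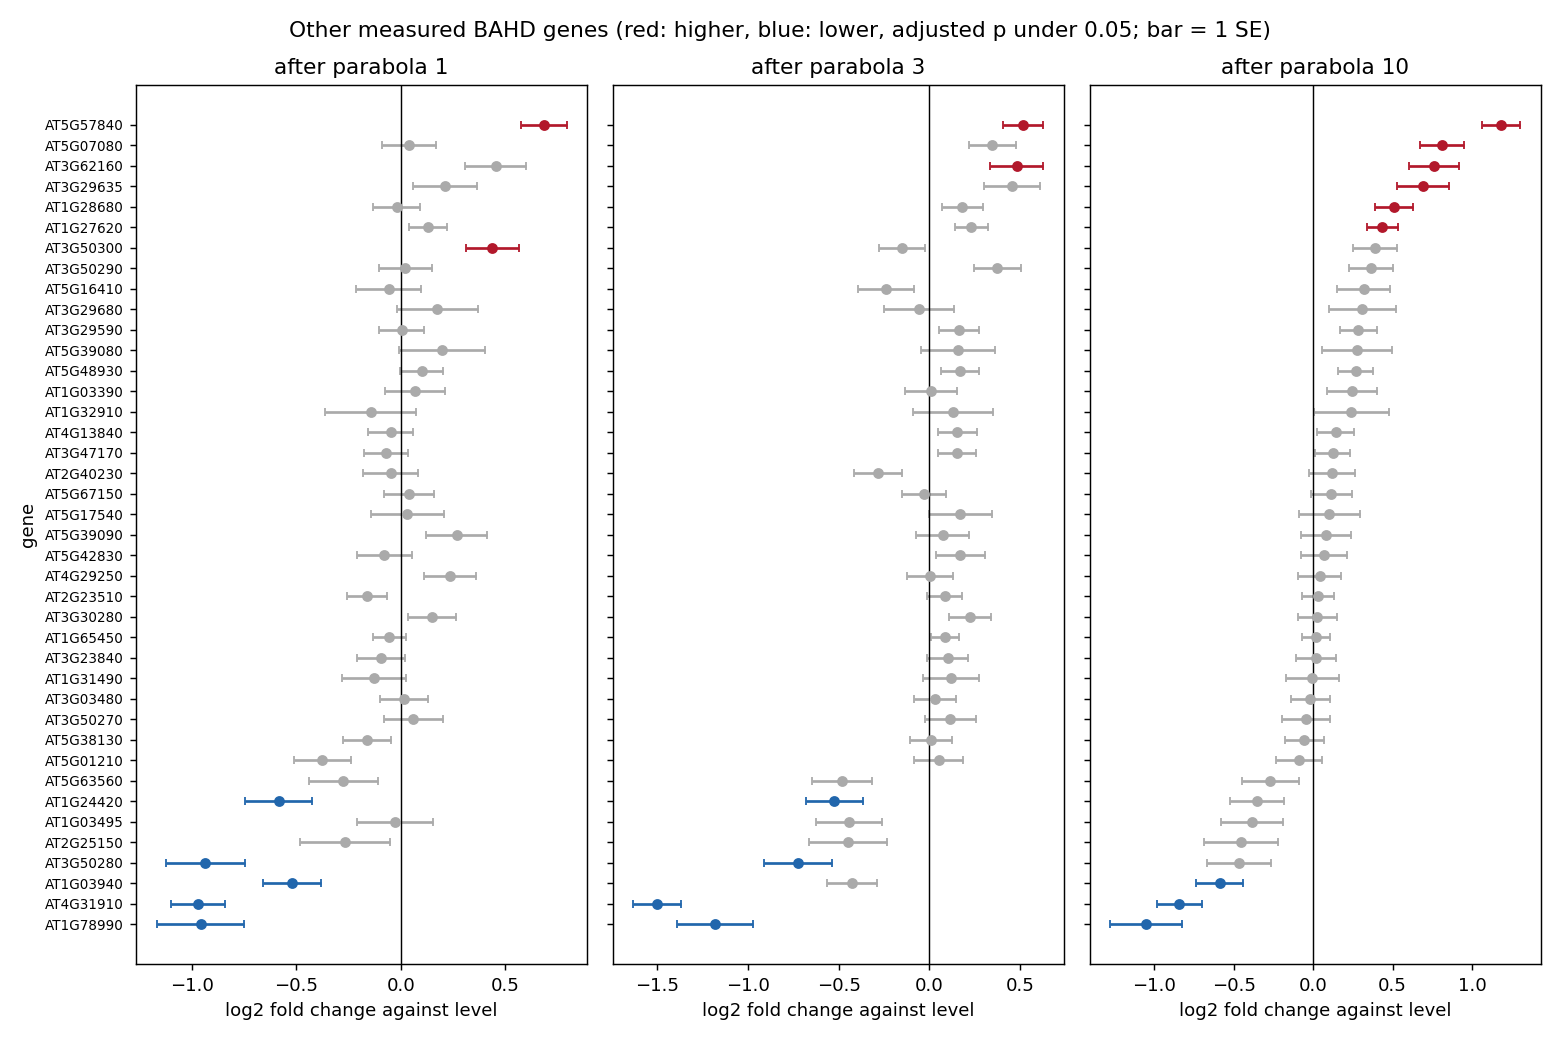
Log2 fold change against level flight (x axis; points, with a bar of 1 SE on each side) of the 40 other measured BAHD genes after parabolas 1, 3 and 10, coloured where the limma adjusted p was under 0.05. AT5G57840 is highest after each parabola group, and AT4G31910 (BAT1) and AT1G78990 are the lowest 2.

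Few other triterpene genes were measured. Of 30 listed, 3 had a one-gene row: AT1G66800, AT5G36130 of the tirucalladienol group and LUP5 (AT1G66960), an oxidosqualene cyclase gene. No marneral gene of 3 and no other arabidiol or baruol region gene of 10 was measured. AT5G36130 measured 5.65, 5.72, 5.23 and 6.04 in level flight, 5.49, 5.25, 5.74 and 5.69 after parabola 1, 4.88, 5.11, 5.27 and 4.62 after parabola 3, and 3.90, 4.51 and 5.52 after parabola 10. Its parabola 10 arrays ran from 3.90 to 5.52 and overlapped with level flight. It fell after parabola 10 by 1.01 ± 0.27 (limma adjusted p = 0.017), with −0.12 (adjusted p = 0.873) and −0.69 (adjusted p = 0.094) after parabolas 1 and 3. That call was lost in 4 of 25 alternatives, and without parabola 10 replicate 1 the difference was −0.64 (limma adjusted p = 0.128). LUP5 did not pass in any of the 6 contrasts. Of 19 listed sterol and mevalonate genes, which supply the triterpene precursor, 2 were measured and neither passed in any contrast.

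Across the series no arrays held identical values. Markers of the tissue were sparsely covered: 1 of 5 root hair genes, 0 of 4 endodermis genes, 0 of 3 pericycle and xylem genes and 0 of 2 root cap genes were measured, so the root label could be checked against root hair EXPA7 alone. EXPA7, a root hair expansin, lay between 5.52 and 6.66 on all arrays and rose after parabola 3 by 0.55 (limma adjusted p = 0.0145) and after parabola 10 by 0.81 (adjusted p = 0.00118). Its part in the differences of the BAHD genes was not tested. Both measured shoot genes of 18, LHB1B2 at 3.14 to 4.11 and RCA at 5.33 to 6.30, passed in no contrast. How far sequence differences between the WS line and the reference genome alter probe signal was not tested.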

How the data were processed

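RNA of whole roots was hybridised to 15 arrays. Per the submitters' processing notes, the deposited values are log2 expression values from RMA, which corrects background, scales arrays and summarises probes. TAIR10, R 4.0.0, limma and oligo are also listed there, without a role. Of 38408 rows, 16722 were annotated to exactly 1 gene, 759 to several and 20927 to none. For 146 genes with several rows the row with the highest mean was kept, leaving 16550 genes without a filter on low signals. Gene order came from a reference table of TAIR10.1, matched by gene identifier to 16574 rows. As the submitters list TAIR10, coordinates are left out.

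Group means over all 15 arrays were fitted with limma 3.58.1 in R 4.3.3 (lmFit, eBayes), with 6 contrasts, two-sided tests and Benjamini-Hochberg adjustment within each contrast over 16550 genes. The fit was tested on simulated data. An adjusted p under 0.05 was called. The number of arrays limits precision.

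The 9 genes and all lists were chosen with earlier results of these data known. Named beside them were the 5 closest profiles to AT5G47980, every measured triterpene gene, the 4 other BAHD genes with the smallest F-test p, measured genes within 3 places of AT5G47980 or AT5G07860, the gene of the 9 with the smallest adjusted p in each contrast between parabola groups, and tissue markers. A comparison of protein sequences and a wider BAHD list by annotation text were not used here. Alternatives covered scaling, low-signal filtering, rows tested, arrays in the fit, variance model, array weights, the replicate block, a covariate, thresholds and omission of each array.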

Additional observations from a re-analysis of the deposited data

Results flagged for a closer look

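AT1G66800 after parabola 3 had 1 array far from the others: replicate 1 measured 6.84, whereas replicates 2 to 4 measured between 6.42 and 6.48. The gap to the nearest array was 0.839 of the group's range, beside a critical value of 0.829 for 4 samples. In all, 48 sets of 1 gene in 1 group of 4 arrays were examined, over 16 genes, and chance flags about 1 in 20 such sets. The parabola 10 group, with 3 arrays, was not examined. Without that array, parabola 10 against parabola 3 passed for AT1G66800 (limma adjusted p = 0.0307). None of the 9 BAHD genes had such an array.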

How the results depend on the processing

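In the alternatives run, no result past the threshold changed sign. The number of the 9 genes called after parabola 1, 4, became 2 with the unnamed-row covariate and 2 with a 2-fold minimum. After parabola 3, 5 became 1 with a 2-fold minimum. Between parabola 3 and parabola 1, 1 became 0 with all rows tested, the arrays of both groups alone, the covariate, an adjusted p under 0.01 or a 2-fold minimum. Between parabola 10 and parabola 1, 2 became 0 with the covariate. The share of all tested genes called also moved by over 1.5 times in some settings. The covariate lowered it from 8.33% to 2.91% after parabola 1, from 1.72% to 0.115% between parabolas 3 and 1, from 1.17% to 0.489% between parabolas 10 and 3, and from 3.56% to 0.00604% between parabolas 10 and 1. For the last 3 of these contrasts the arrays of both groups alone gave 0.967%, 0.417% and 2.21%. Centring on reference genes gave 1.13% between parabolas 3 and 1 and 0.731% between parabolas 10 and 3, where array weights gave 0.713%. Single arrays left out gave as little as 0.81%, 0.538% and 1.66% (parabola 1 replicate 1, parabola 10 replicate 2 and parabola 10 replicate 2). Leaving out each array in turn gave 4 to 5 of the 9 genes after parabola 1, beside 6.18% to 8.56% of all genes. It gave 4 to 5 after parabola 3 (8.27% to 11.6%) and 3 to 4 after parabola 10 (10.4% to 14.9%). Between parabolas 3 and 1 it gave 0 to 2 (0.81% to 2.32%). Between parabolas 10 and 3 it gave 3 (0.538% to 1.49%), and between parabolas 10 and 1 it gave 2 (1.66% to 4.6%). As the covariate cannot be cleanly separated from the parabola 1 group, nothing is read from calls lost with it. The causes were not tested. No gene of the 9 had a further one-gene row, so that alternative gave no value.

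With the replicate number as a block, the counts of called genes were 4, 5 and 4 after parabolas 1, 3 and 10. Beside them, 8.31%, 11% and 13.7% of all tested genes passed. Between parabola groups the counts were 1, 3 and 2, beside 1.68%, 1.09% and 3.24%. The block added AT3G26040 after parabola 10 and ended the call of AT1G66800 there (adjusted p = 0.0562). Deviations of same-numbered arrays of different groups correlated at −0.08 to 0.11 over 21 pairs, above 0.1 in 1. Those of arrays with different numbers correlated at −0.13 to 0.15 over 63 pairs, above 0.1 in 2. The first range lies inside the second, and this does not settle whether the numbers pair the samples. With 4 or fewer arrays per group, small differences may not be detectable, and genes at low signal such as AT5G07850 and AT5G23970 are limited most.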
